A study of Arabidopsis thaliana with 9 samples.

Results

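Seedlings of the icpk line and of wild type Arabidopsis thaliana, both given nitrate, were compared across all genes by RNA sequencing. The samples were taken by their titles, 3 icpk libraries and 3 wild type libraries, which are 6 of the 9 in the series. All 32678 gene rows of the count tables entered, and the 5 summary rows were left out. The icpk seedlings are mutant in 3 kinase genes, CPK10, CPK30 and CPK32. They express CPK10(M141G) with a tag written DHA, a kinase altered so that the small molecule 3MBiP can block it, and they received 10 mM KNO3 for 15 min. Wild type seedlings with the same salt for the same time are called KNO3 wild type here. The other 3 libraries come from wild type seedlings with 10 mM KCl for 15 min, called KCl wild type, and stand beside the others as levels. All seedlings were 7 days old and had grown in liquid culture at 23 °C in constant light, with sucrose and with zinc, iron and copper salts. Their nitrogen source was 2.5 mM ammonium succinate, and about 10 seedlings were pooled per sample. The protocol describes 10 µM 3MBiP for 2 min ahead of the salt, but no label ties the inhibitor to particular samples. The labels call the mutant inducible and name no promoter, inducer or number of lines. No icpk library with KCl was used here. A difference that was there before nitrate, a changed response to nitrate and an effect of the inhibitor therefore cannot be told apart in this comparison.

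Calcium-dependent protein kinases (CPKs) carry a kinase domain and calcium-binding EF hands in the same protein, so that a rise in cytosolic calcium turns directly into phosphorylation. In nitrate signalling, CPK10, CPK30 and CPK32 act between the calcium signal that nitrate sets off and the NIN-like protein NLP7, a transcription factor that drives the first nitrate-responsive genes. Loss of a single CPK is often masked by relatives, and a kinase with an enlarged ATP pocket lets the last member be switched off chemically at a chosen time.

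The engineered change replaces a methionine of CPK10 with glycine. The reference coding sequence of CPK10 (AT1G18890, 1638 coding bases) around that codon is shown because reads of the introduced gene and of the native gene fall on the same identifier. The stretch lies at chr1:6525284-6525346 on the minus strand (TAIR10.1, RefSeq), and the capitals mark the methionine codon named in the label.
CPK10 codon of the engineered residue: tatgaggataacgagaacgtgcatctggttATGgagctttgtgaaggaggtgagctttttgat
The count tables hold no read sequence, so the change itself was not observed. Levels are in CPM, gene counts scaled to a common library size, and differences are on the log2 scale, icpk minus KNO3 wild type, with an approximate SE. CPK10, the kinase that the line adds back, had 165, 166 and 149 CPM in icpk, against 88.3, 81.4 and 101 CPM in KNO3 wild type (log2 difference 0.83 ± 0.12 SE, adjusted p = 0.00147). KCl wild type lay lowest at 61.9, 78.3 and 72.0 CPM, so icpk was above all 6 wild type libraries. CPK30 had 3.74, 3.597 and 2.84 CPM in icpk, against 26.5, 28.7 and 27.4 CPM in KNO3 wild type (-3.02 ± 0.13). CPK32 had 20.1, 25.1 and 18.8 CPM in icpk, against 199, 213 and 206 CPM in KNO3 wild type (-3.27 ± 0.23). Reads of CPK30 and CPK32 remained at 12.3% and 10.4% of KNO3 wild type, and transcripts that remain do not show a working protein. In the authors' deposited table these 3 genes had log2 differences of 0.78, -2.83 and -2.91. Among the 20 nearest tested genes around each locus, 4 were called higher and 1 lower at CPK10, 3 and 4 at CPK30, and 3 and 5 at CPK32. Over all genes tested 22.7% were called. MYB31, a MYB transcription factor gene near CPK30, was lower at -1.94 ± 0.24. GLP4, a germin-like protein gene near CPK10, was higher at 2.11 ± 0.33.

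**Figure D1:**
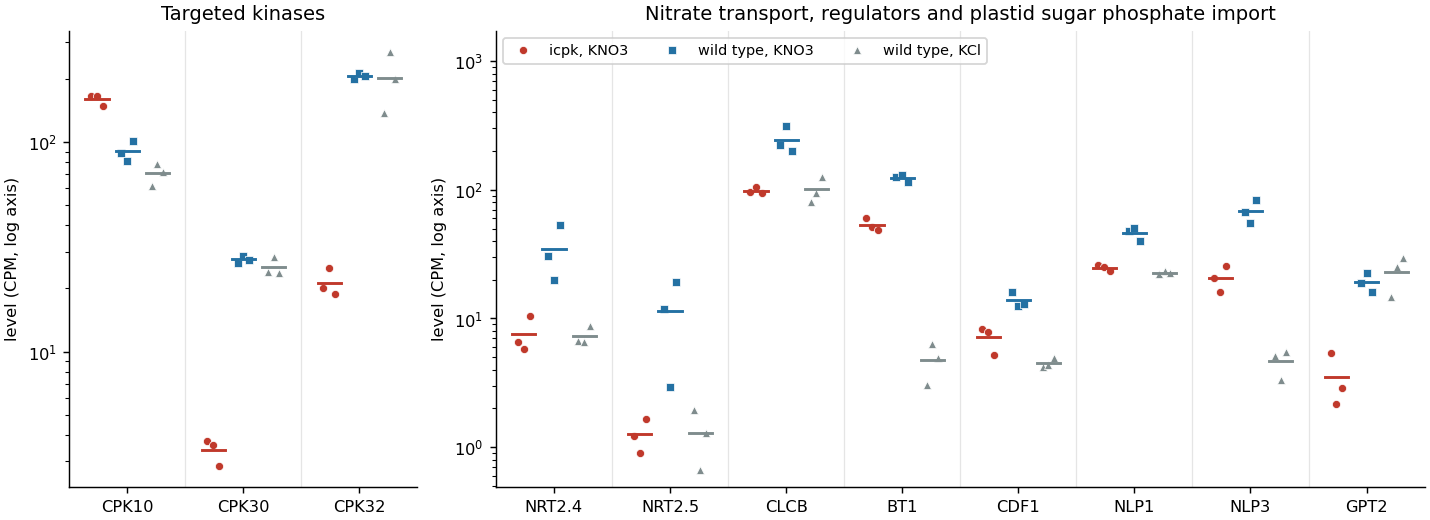
Levels (CPM, log axis) of the targeted kinases and of 8 genes of nitrate transport, nitrate regulation and plastid sugar phosphate import in each library, with icpk in red, KNO3 wild type in blue and KCl wild type in grey; horizontal lines are group means. CPK30 and CPK32 lie below all wild type libraries and CPK10 above them, and for each of the other 8 genes the 3 icpk libraries lie below the 3 KNO3 wild type libraries.

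Gene counts per library ran from 11822413 to 18366578 in icpk and from 14265988 to 17126496 in KNO3 wild type. Records aligned at several places made up 32.1% to 58.0% of all records in icpk and 23.8% to 51.5% in KNO3 wild type. No label states separate cultures for the libraries of a group, so p-values measure the spread among these libraries, part of which may be technical. Tests used edgeR's quasi-likelihood test with Benjamini-Hochberg adjustment over 20288 genes, and a gene was called at an adjusted p below 0.05. Called higher in icpk were 2286 genes, or 11.3% of those tested, and called lower were 2313, or 11.4%. At least 2-fold higher were 370 genes (1.82%) and at least 2-fold lower were 732 (3.61%). The median log2 difference over all genes tested was 0.01. For 39.6% of genes tested the icpk libraries did not overlap those of KNO3 wild type, so a lack of overlap is common here.

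Median differences of shoot and root markers had opposite signs. The 31 shoot photosynthesis markers, nuclear genes of antenna, photosystem, Rubisco and Calvin cycle proteins, summed to 86342, 66651 and 104396 CPM in icpk, against 56089, 68939 and 49440.1 CPM in KNO3 wild type. The sums overlapped, and KCl wild type had 77824, 94695 and 81560.4 CPM. Of these markers 3 were higher, 0 lower and 28 not called, with a median of 0.51. The difference was positive for 30 and negative for 1, and 21 had an unadjusted p below 0.05 by edgeR. The count of higher markers was 17 without icpk replicate 2, 9 without KNO3 wild type replicate 2 and 1 without any other single KNO3 library, and it was 18 by DESeq2. RBCS1B, a Rubisco small subunit gene whose near-identical copies make its counts uncertain, had 781, 754 and 972 CPM in icpk, against 277, 523 and 281 CPM in KNO3 wild type (log2 difference 1.21 ± 0.25 SE, adjusted p = 0.00794). The 22 root markers, genes of root hairs, endodermis and root meristem, summed to 351, 484 and 446 CPM in icpk, against 562, 526 and 719 CPM in KNO3 wild type. The sums did not overlap, and KCl wild type had 441, 395 and 499 CPM. Of 21 tested, 7 were lower and 0 higher, with a median of -0.49. PRP3, a cell wall protein gene of root hairs, had 8.26, 17.5 and 13.5 CPM in icpk, against 24.0, 27.0 and 46.0 CPM in KNO3 wild type (-1.29 ± 0.29). LRX1, an extensin gene of root hairs, had 7.91, 17.2 and 13.5 CPM in icpk, against 22.7, 25.3 and 31.9 CPM in KNO3 wild type (-1.03 ± 0.23). Lower root markers numbered 3 or 4 without icpk replicate 1, icpk replicate 3, KNO3 wild type replicate 1 or KNO3 wild type replicate 3. In whole seedlings fewer cells of a type and less RNA per cell cannot be told apart, and the part of these marker shifts in the other results was not tested. From the first 2 replicates of each group alone, RBCS1B, PRP3 and LRX1 were not called.

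**Figure D2:**
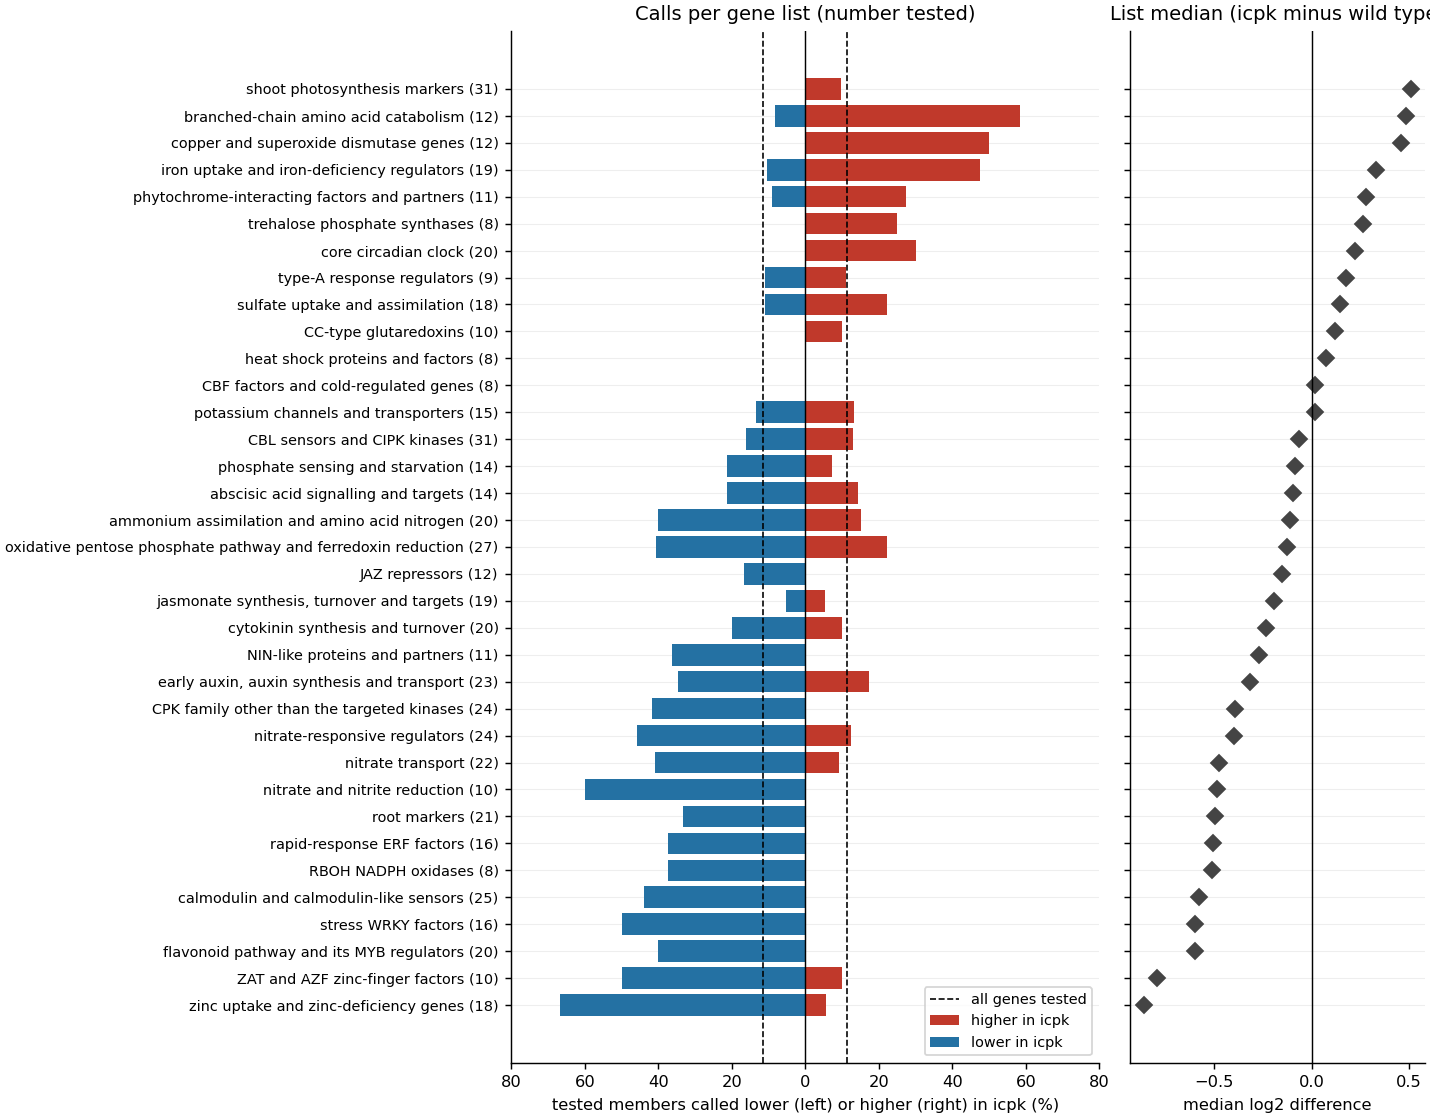
Left, share of the tested members of each gene list (8 or more tested, number in brackets) called higher (red) or lower (blue) in icpk than in KNO3 wild type, with dashed lines at the shares over all genes tested, 11.3% and 11.4%; right, the median log2 difference of each list. Zinc uptake genes have the lowest median, -0.86, and the largest share of lower members, and branched-chain amino acid catabolism has the largest share of higher members.

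Many genes that take up and reduce nitrate were lower in icpk. Of 22 tested nitrate transport genes 9 were lower and 2 higher (median -0.47), and of 10 genes of nitrate and nitrite reduction 6 were lower and 0 higher (median -0.48). The deepest falls were in high-affinity transporter genes. NRT2.2 had 0.956, 0.212 and 1.18 CPM in icpk, against 10.4, 6.37 and 14.6 CPM in KNO3 wild type (log2 difference -3.82 ± 0.45 SE, adjusted p = 0.000848). KCl wild type had 0.0486, 0.0668 and 0 CPM, below icpk. NRT2.4, which works at low external nitrate, had 6.605, 5.77 and 10.52 CPM in icpk, against 30.4, 19.7 and 52.9 CPM in KNO3 wild type (-2.17 ± 0.34). NRT2.5, a transporter of nitrogen-starved plants, had 1.22, 0.899 and 1.66 CPM in icpk, against 11.9, 2.93 and 19.1 CPM in KNO3 wild type (-3.18 ± 0.62). Both overlapped KCl wild type, with 6.66, 6.61 and 8.80 CPM for NRT2.4 and 1.94, 0.668 and 1.28 CPM for NRT2.5. NRT2.1, the main high-affinity importer of roots, fell less, with 123, 132 and 114 CPM in icpk, against 185, 229 and 193 CPM in KNO3 wild type (-0.72 ± 0.17), and stayed above KCl wild type. NPF7.2 (NRT1.8), which withdraws nitrate from the xylem, was lower (-1.73 ± 0.31), below KCl wild type as well, which had 18.1, 28.2 and 31.7 CPM. The dual-affinity transceptor NPF6.3 (NRT1.1) had -0.12 ± 0.13 and did not pass. CLCB, a vacuolar anion exchanger, had 95.8, 105 and 94.5 CPM in icpk, against 223, 313 and 199.9 CPM in KNO3 wild type (log2 difference -1.32 ± 0.19 SE, adjusted p = 0.00172). CLCA, which loads nitrate into the vacuole, went the other way, with 81.3, 93.7 and 86.8 CPM in icpk, against 63.0, 73.3 and 62.6 CPM in KNO3 wild type (0.40 ± 0.10). Of the nitrate reductase genes, NIA1 had 541, 494 and 575 CPM in icpk, against 830.4, 981 and 881 CPM in KNO3 wild type (-0.74 ± 0.18), and NIA2 was lower as well (-0.81 ± 0.15). CNX2, which acts in the first step of the molybdenum cofactor of nitrate reductase, had 46.8, 39.5 and 34.5 CPM in icpk, against 63.4, 55.5 and 56.8 CPM in KNO3 wild type (-0.54 ± 0.12). Higher transport genes numbered 1 without icpk replicate 2 and 0 without KNO3 wild type replicate 1 or 3. NRT2.5 stood at -2.57 without KNO3 wild type replicate 3. CLCA was not called without icpk replicate 2 or KNO3 wild type replicates 1 or 3 (adjusted p = 0.0595 to 0.0764). In a fit of replicates 1 and 2 alone, NRT2.5, NRT2.1, NPF7.2, CLCA, NIA1, NIA2 and CNX2 were not called.

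Regulators of the nitrate response changed in both directions, and NIN-like protein genes in 1 direction. Of 24 tested regulators 11 were lower and 3 higher (median -0.40), and of 11 NIN-like protein genes and partners 4 were lower and 0 higher (median -0.27). BT1, a BTB-TAZ scaffold protein gene and an early nitrate marker, had 60.8, 51.2 and 48.4 CPM in icpk, against 126, 131 and 115 CPM in KNO3 wild type (log2 difference -1.22 ± 0.17 SE, adjusted p = 0.00159). KCl wild type lay below icpk, with 3.06, 6.34 and 4.95 CPM. Its relative BT2 had 0.28 ± 0.23 and did not pass, and BT4 was higher (1.07 ± 0.23), with 57.8, 91.1 and 50.4 CPM in icpk, against 28.6, 41.4 and 24.9 CPM in KNO3 wild type. CDF1, a DOF factor of flowering time and nitrogen genes, had 8.34, 7.83 and 5.19 CPM in icpk, against 16.1, 12.4 and 13.1 CPM in KNO3 wild type (-0.96 ± 0.18). TGA4, a bZIP regulator of NRT2 genes, had 34.8, 38.0 and 29.96 CPM in icpk, against 53.5, 55.1 and 46.8 CPM in KNO3 wild type (-0.60 ± 0.11). Both lay above KCl wild type. OBP4, a DOF factor that restrains root hair growth, had 17.9, 17.7 and 25.3 CPM in icpk, against 11.498, 10.099 and 11.3 CPM in KNO3 wild type (0.89 ± 0.15), above all wild type libraries. Of the LBD repressors of nitrogen genes, LBD38 (-0.40 ± 0.13) and LBD39 (-0.62 ± 0.12) were lower, and LBD37 (-0.36 ± 0.15) did not pass. NLP3 had the largest fall of its family, with 20.8, 15.9 and 25.6 CPM in icpk, against 67.0, 55.7 and 83.6 CPM in KNO3 wild type (log2 difference -1.73 ± 0.21 SE, adjusted p = 0.000848). The icpk level was 30.2% of KNO3 wild type and still above KCl wild type, which had 5.10, 3.34 and 5.50 CPM. NLP1 had 25.9, 25.3 and 23.3 CPM in icpk, against 47.7, 50.4 and 39.6 CPM in KNO3 wild type (-0.89 ± 0.10), and overlapped KCl wild type. NLP5 had 33.2, 30.1 and 27.9 CPM in icpk, against 48.4, 44.6 and 44.4 CPM in KNO3 wild type (-0.59 ± 0.11). Here KCl wild type, with 36.3, 45.9 and 43.4 CPM, overlapped KNO3 wild type. NLP2 was lower too (-0.49 ± 0.10). The transcript of NLP7, the substrate of the mutated kinases, had -0.27 ± 0.10 and did not pass (adjusted p = 0.0873). Lower regulators numbered 7 without KNO3 wild type replicate 1. LBD38 did not pass without icpk replicates 1, 2 or 3, KNO3 wild type replicates 1, 2 or 3 or KCl wild type replicate 1 or with limma voom (adjusted p = 0.0584 to 0.125). From the first 2 replicates of each group alone, LBD38 and NLP2 were not called.

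Genes that supply plastids with reducing power split by isoform. Root plastids make NADPH from glucose 6-phosphate in the oxidative pentose phosphate pathway, and root-type ferredoxin and its reductase carry the electrons on to nitrite reductase. The list tested also holds isoforms that work outside plastids. Of its 27 tested genes 11 were lower and 6 higher (median -0.13), and 9 and 4 of them were called in every fit that left out 1 library. The plastid dehydrogenase gene G6PD2 had 159.6, 141.4 and 165 CPM in icpk, against 312, 302 and 312 CPM in KNO3 wild type (log2 difference -0.99 ± 0.09 SE, adjusted p = 0.000304). The root ferredoxin reductase genes followed, RFNR1 with 186, 168 and 164 CPM in icpk, against 373, 324 and 356 CPM in KNO3 wild type (-1.02 ± 0.10). RFNR2 had 233, 252 and 188 CPM in icpk, against 487, 461 and 409 CPM in KNO3 wild type (-1.01 ± 0.14). For these genes KCl wild type lay lowest, with 39.2, 38.1 and 39.8 CPM for G6PD2 and 42.4, 41.8 and 43.1 CPM for RFNR1. The root-type ferredoxin gene FD3 had 295, 292 and 312 CPM in icpk, against 505, 473 and 578 CPM in KNO3 wild type (-0.79 ± 0.14). AT5G41670, of the 6-phosphogluconate dehydrogenase family, had 615, 530.3 and 619 CPM in icpk, against 1058, 1066 and 1167 CPM in KNO3 wild type (-0.90 ± 0.12). In both, icpk again stood between the wild type groups. GPT2, which imports glucose 6-phosphate into plastids, had the largest fall of the list, with 5.39, 2.17 and 2.91 CPM in icpk, against 18.7, 22.5 and 16.0 CPM in KNO3 wild type (-2.50 ± 0.33). KCl wild type had 14.7, 25.1 and 29.3 CPM, so that icpk lay below both wild type groups. On the higher side, G6PD1 had 80.04, 67.8 and 79.98 CPM in icpk, against 48.3, 52.4 and 48.1 CPM in KNO3 wild type (0.61 ± 0.13). G6PD4, a noncatalytic isoform, had 12.1, 8.20 and 10.7 CPM in icpk, against 4.84, 5.51 and 4.09 CPM in KNO3 wild type (1.09 ± 0.20). FDC1, a ferredoxin-like protein of chloroplasts, had 82.9, 67.8 and 86.6 CPM in icpk, against 39.3, 52.4 and 39.2 CPM in KNO3 wild type (0.86 ± 0.14). The lactonase gene PGL5 (1.24 ± 0.26) and the leaf ferredoxins FD1 (0.62 ± 0.18) and FD2 (0.80 ± 0.22) were higher too, in the libraries where the median of the shoot markers was 0.51. FD1 was not called without icpk replicates 1 or 3 or KNO3 wild type replicates 1 or 3 or in a fit of the 6 KNO3 libraries (adjusted p = 0.0567 to 0.115). FD2 missed the threshold without icpk replicates 1 or 3 or KNO3 wild type replicates 1 or 3 (adjusted p = 0.0578 to 0.0992). Dropping the third replicate of every group left G6PD4, PGL5, FD1 and FD2 uncalled.

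**Figure D3:**
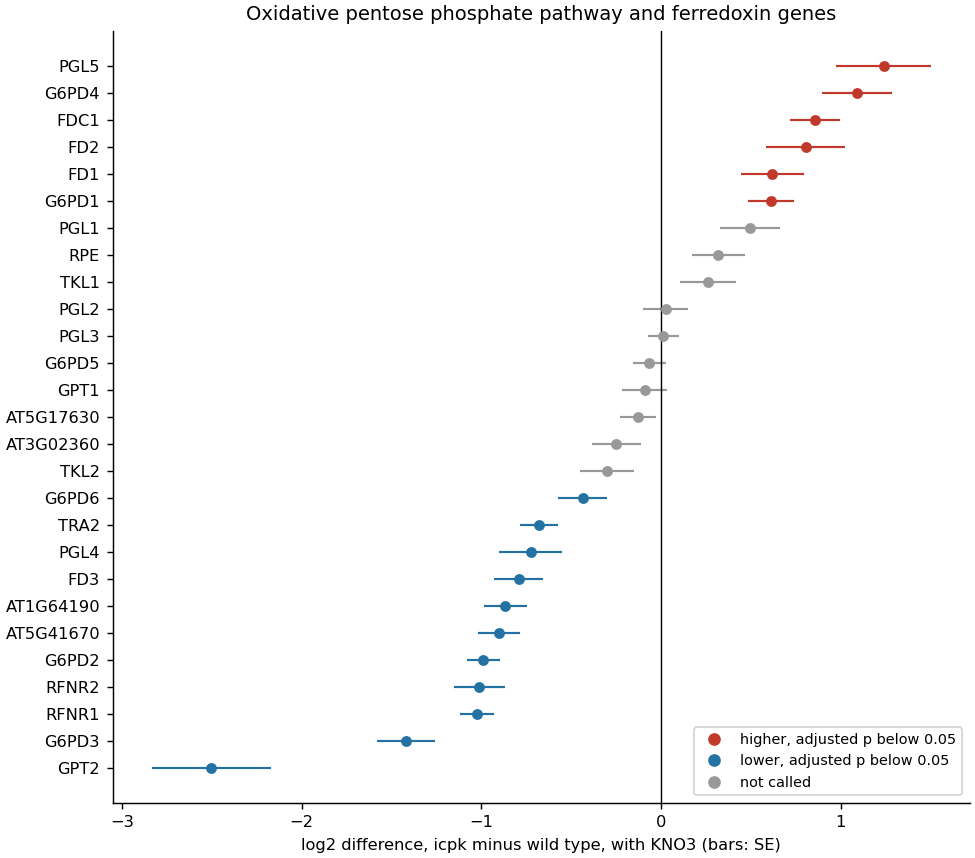
Log2 difference of icpk minus KNO3 wild type for the 27 tested genes of plastid reducing power; bars are SE, red and blue mark genes called higher and lower, and grey those not called. GPT2 lies lowest at -2.50, the genes G6PD2, G6PD3, RFNR1, RFNR2 and FD3 are all on the lower side, and G6PD1, G6PD4, FD1 and FD2 are on the higher side.

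Among genes of ammonium assimilation, asparagine and glutamate turnover, single members parted. Of 20 tested, 8 were lower and 3 higher (median -0.11), against 11.4% lower and 11.3% higher over all genes tested. ASN1, the asparagine synthetase of dark and starved tissue, had 60.2, 29.3 and 90.6 CPM in icpk, against 7.82, 11.53 and 4.42 CPM in KNO3 wild type (log2 difference 2.91 ± 0.44 SE, adjusted p = 0.00203). The glutamate dehydrogenase gene GDH1 had 89.6, 93.6 and 109.5 CPM in icpk, against 57.7, 59.6 and 49.2 CPM in KNO3 wild type (0.81 ± 0.11). Both overlapped KCl wild type, which had 26.4, 47.9 and 29.5 CPM for ASN1 and 105, 90.14 and 94.0 CPM for GDH1. GDH2 was higher as well (0.88 ± 0.17). GDH3 went against its relatives, with 0.869, 1.06 and 1.25 CPM in icpk, against 6.39, 2.07 and 7.52 CPM in KNO3 wild type (-2.30 ± 0.44). GLN1.4, a cytosolic glutamine synthetase gene, had 8.08, 9.15 and 13.0 CPM in icpk, against 43.1, 19.8 and 63.0 CPM in KNO3 wild type (-2.05 ± 0.35), below KCl wild type with 17.64, 16.8 and 20.7 CPM. GLN1.1 was lower as well (-1.04 ± 0.19), while GLN1.2 (0.40 ± 0.17) and the plastid enzyme GLN2 (0.30 ± 0.16) did not pass. Lower genes numbered 4 without KNO3 wild type replicate 1 or 3 and 5 without icpk replicate 2. From the first 2 replicates of each group alone, GDH2 and GDH3 were not called.

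Genes of low energy and sugar starvation were mostly higher. Of 7 tested markers 4 were higher and 1 lower (median 0.66). Of 12 genes of branched-chain amino acid catabolism, a mitochondrial route that feeds respiration when sugar is short, 7 were higher and 1 lower (median 0.48). SEN1, a senescence and darkness marker, had 39.5, 30.04 and 47.3 CPM in icpk, against 9.88, 9.35 and 3.297 CPM in KNO3 wild type (log2 difference 2.36 ± 0.32 SE, adjusted p = 0.00129), and overlapped KCl wild type. DIN10, a raffinose synthase family gene induced in the dark, had 364, 370.4 and 566 CPM in icpk, against 91.7, 151 and 93.1 CPM in KNO3 wild type (1.95 ± 0.24). Its KCl wild type level was 238, 223 and 171 CPM, so icpk stood above both wild type groups. MCCA, a subunit of methylcrotonyl-CoA carboxylase in the catabolic route, had 52.2, 41.6 and 54.4 CPM in icpk, against 26.8, 28.3 and 25.5 CPM in KNO3 wild type (0.88 ± 0.11). MCCB, its partner subunit, had 53.9, 54.0 and 62.5 CPM in icpk, against 41.9, 39.0 and 36.0 CPM in KNO3 wild type (0.54 ± 0.09). IVD, isovaleryl-CoA dehydrogenase, one step earlier, had 33.02, 36.1 and 36.2 CPM in icpk, against 27.3, 23.2 and 20.8 CPM in KNO3 wild type (0.56 ± 0.11). EXL1, a gene of low carbon status, went against its list (-1.26 ± 0.35). Of 8 trehalose phosphate synthase genes, whose products take part in sugar signalling, 2 were higher and 0 lower (median 0.26). Higher genes numbered 4 without icpk replicate 2, and 1 was lower with the replicate number as a block or without KCl wild type replicate 3. TPS8 had 142, 138 and 166 CPM in icpk, against 81.6, 81.6 and 67.7 CPM in KNO3 wild type (0.95 ± 0.13). TPS11 had 60.6, 52.3 and 75.1 CPM in icpk, against 34.2, 27.0 and 33.5 CPM in KNO3 wild type (0.99 ± 0.16). Of 4 tested C and S1 group bZIP genes, bZIP63, a target of the energy-sensing kinase SnRK1, was the 1 called, with 37.2, 32.4 and 33.3 CPM in icpk, against 21.4, 18.9 and 14.2 CPM in KNO3 wild type (0.91 ± 0.18). Each of these 3 stood above KCl wild type too. Another 5 genes of that group (bZIP1, bZIP2, bZIP11, bZIP44 and bZIP53) were listed at 0 counts in all 9 libraries, which is no measure of their expression. EXL1 was not called without icpk replicates 1, 2 or 3 or KNO3 wild type replicates 1 or 3 (adjusted p = 0.0601 to 0.0894). In a fit of replicates 1 and 2 alone, IVD and EXL1 were not called.

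KMD proteins are kelch F-box proteins that mark phenylalanine ammonia-lyase and type-B response regulators for degradation. Of 3 tested KMD genes 2 were higher and 0 lower. KMD4 had 104, 118 and 164 CPM in icpk, against 14.3, 20.9 and 15.2 CPM in KNO3 wild type (log2 difference 2.93 ± 0.24 SE, adjusted p = 0.000152). KCl wild type had 65.9, 45.8 and 39.6 CPM. KMD1 had 171, 171 and 276 CPM in icpk, against 105, 85.0 and 118 CPM in KNO3 wild type (1.00 ± 0.25). For both genes all icpk libraries lay above all 6 wild type libraries. KMD1 did not pass without icpk replicate 3 or KNO3 wild type replicate 1 (adjusted p = 0.0598 to 0.0643). From the first 2 replicates of each group alone, KMD1 was not called.

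Zinc uptake genes had the lowest median of any list with 8 or more members tested. Of 18 tested, 12 were lower and 1 higher (median -0.86), and 11 of the 12 were called in every fit that left out 1 library. Plants sense zinc through the factors bZIP19 and bZIP23, which bind the zinc deficiency response element in promoters of ZIP transporter and nicotianamine synthase genes when zinc is short. The core TGTCGACA, its own reverse complement, was searched from 250 bases before to 50 after each gene start. The 3 zinc uptake genes that hold it are shown to let the letters be read beside the levels, and CA1 as a gene with the same core and the opposite change. CA2 held the core too and was also higher (1.90 ± 0.16), and its stretch is not printed. Capitals mark the core (TAIR10.1, RefSeq).
ZIP12, chr5:24959915-24959974, plus strand: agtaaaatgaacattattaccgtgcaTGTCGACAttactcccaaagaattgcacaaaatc
ZIP4, chr1:3667145-3667204, minus strand: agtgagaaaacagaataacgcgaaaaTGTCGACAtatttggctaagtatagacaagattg
IRT3, chr1:22447300-22447349, minus strand: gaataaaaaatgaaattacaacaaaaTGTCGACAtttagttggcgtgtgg
CA1, chr3:198665-198719, minus strand: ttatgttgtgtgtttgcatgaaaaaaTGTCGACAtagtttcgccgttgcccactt
The core occurred in 0.330% of the windows of genes tested. Of the 66 tested genes with it, 17 (25.8%) were lower and 7 (10.6%) higher, with a median of -0.17. Among all genes tested 11.4% were lower and 11.3% higher. A match describes letters and is no evidence of binding.

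ZIP12, a zinc transporter gene with the core 166 bases before its start, had 0, 0.159 and 0.138 CPM in icpk, against 4.005, 2.07 and 2.04 CPM in KNO3 wild type (log2 difference -4.51 ± 0.58 SE, adjusted p = 0.00106). ZIP9 had 7.39, 4.44 and 10.6 CPM in icpk, against 54.3, 69.8 and 76.2 CPM in KNO3 wild type (-3.18 ± 0.26). ZIP4, with the core 39 bases before its start, had 54.3, 43.3 and 60.1 CPM in icpk, against 144, 133 and 186 CPM in KNO3 wild type (-1.55 ± 0.16). All 3 lay below KCl wild type too, which had 4.62, 5.14 and 8.43 CPM for ZIP12 and 78.1, 97.2 and 107 CPM for ZIP9. ZIP3 (-1.07 ± 0.16) and ZIP5 (-1.05 ± 0.21) were lower in the same way. IRT3, the third gene with the core, had 195, 196 and 239.9 CPM in icpk, against 256, 263 and 301 CPM in KNO3 wild type (-0.38 ± 0.12). MTPA1, listed as MTP2, a root transporter that moves zinc towards the shoot, had 0.695, 0.370 and 0.138 CPM in icpk, against 9.69, 6.94 and 10.7 CPM in KNO3 wild type (log2 difference -4.54 ± 0.36 SE, adjusted p = 0.000149). HMA2, a pump that loads zinc into the xylem, had 29.2, 23.0 and 34.2 CPM in icpk, against 80.4, 78.1 and 73.9 CPM in KNO3 wild type (-1.43 ± 0.15). It differed from the others in that KCl wild type lay lowest, with 17.3, 14.6 and 19.98 CPM. Nicotianamine synthases make the metal chelator nicotianamine, and NAS2 had 33.2, 42.7 and 30.4 CPM in icpk, against 92.9, 95.3 and 98.1 CPM in KNO3 wild type (-1.43 ± 0.12). NAS3 (-0.78 ± 0.13) and NAS4 (-0.93 ± 0.15) were lower, and NAS1 had 0.55 ± 0.23 and did not pass. ZIP2, another transporter of the ZIP family, was the 1 higher member (1.32 ± 0.32). The regulators themselves did not pass, with 0.02 ± 0.10 for bZIP19 and -0.11 ± 0.14 for bZIP23. Of 6 genes of zinc export and storage, the xylem-loading pump HMA4 was higher, with 78.9, 87.4 and 83.4 CPM in icpk, against 58.6, 67.7 and 57.6 CPM in KNO3 wild type (0.44 ± 0.10), and 0 were lower. Over fits that left out 1 library the higher members numbered 0 to 2 among uptake genes and 1 or 2 among export genes, and with the replicate number as a block they numbered 2 in each. Root markers moved with the uptake genes (median -0.49). IRT3 was not called without icpk replicates 1 or 2, KNO3 wild type replicates 1 or 3 or KCl wild type replicates 1, 2 or 3 or in a fit of the 6 KNO3 libraries (adjusted p = 0.0511 to 0.125). ZIP2 missed the threshold without icpk replicate 2 or KNO3 wild type replicates 1 or 3 (adjusted p = 0.0529 to 0.0618). Dropping the third replicate of every group left IRT3, ZIP2 and HMA4 uncalled.

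Defensin-like genes, which encode small cysteine-rich secreted peptides, held some of the deepest falls. They were set apart by their annotation after values were seen, and of 15 tested 6 were lower and 2 higher. Among all genes tested 11.4% were lower and 11.3% higher. AT1G34047 had 43.8, 28.7 and 27.3 CPM in icpk, against 1031, 1394 and 962 CPM in KNO3 wild type (log2 difference -5.09 ± 0.27 SE, adjusted p = 1.70e-05). AT2G36255 had 13.6, 6.98 and 3.94 CPM in icpk, against 186, 361 and 88.2 CPM in KNO3 wild type (-4.72 ± 0.54). AT5G33355 had 0.869, 0.582 and 0.415 CPM in icpk, against 11.6, 16.1 and 10.7 CPM in KNO3 wild type (-4.38 ± 0.31). For these genes icpk lay below KCl wild type as well, which had 771, 1011 and 1189 CPM for AT1G34047. AT4G11393, whose window holds TGTCGACA, had 4.43, 2.27 and 3.11 CPM in icpk, against 28.7, 31.9 and 21.3 CPM in KNO3 wild type (-3.10 ± 0.23). AT1G13609 went the other way, with 3.82, 2.06 and 1.18 CPM in icpk, against 0, 0.0574 and 0 CPM in KNO3 wild type, and was at 0 in 2 of the 3 KNO3 wild type libraries. AT2G36255 stood at -4.10 without KNO3 wild type replicate 2.

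Iron uptake genes were called mostly higher in icpk. Of 19 tested genes of iron uptake and its regulation 9 were higher and 2 lower (median 0.33). In Arabidopsis iron is reduced at the root surface by FRO2, taken up by IRT1 and controlled by a cascade of bHLH factors, the ubiquitin ligase BTS and small IRONMAN peptides. IRT1 had 19.7, 28.3 and 11.4 CPM in icpk, against 0.0646, 0.861 and 0.132 CPM in KNO3 wild type (log2 difference 5.71 ± 0.54 SE, adjusted p = 0.000304). KCl wild type stood between, with 2.19, 2.67 and 2.93 CPM. FRO2 had 6.08, 7.35 and 4.497 CPM in icpk, against 1.94, 2.697 and 3.23 CPM in KNO3 wild type (1.19 ± 0.25). bHLH101, a factor of the deficiency cascade, had 1.22, 1.06 and 0.830 CPM in icpk, against 0.0646, 0.115 and 0 CPM in KNO3 wild type. Its 46 counts in icpk against 3 in KNO3 wild type gave a ratio of 16.4 with a 95% counting interval of 5.28 to 82.6, which covers counting error only. Its fitted log2 difference was 4.65 without KNO3 wild type replicate 2, against 3.88 with every library. AT2G30766, listed as the IRONMAN gene IMA3 though the reference gives only an uncharacterized protein, had 4.87, 1.96 and 2.21 CPM in icpk, against 0.0646, 0.115 and 0.0659 CPM in KNO3 wild type (5.01 ± 0.55). Its KNO3 wild type levels were about as low as those of bHLH101, so the size of this rise is uncertain. AT1G47395, listed as IMA2 and likewise uncharacterized in the reference, had 6.17, 2.80 and 2.01 CPM in icpk, against 0.517, 1.09 and 0.198 CPM in KNO3 wild type (2.52 ± 0.54). The icpk libraries lay above KCl wild type for IRT1, FRO2, bHLH101 and AT2G30766 and overlapped it for AT1G47395. OPT3, which loads iron into the phloem, had 168, 141.4 and 209 CPM in icpk, against 68.3, 77.3 and 72.1 CPM in KNO3 wild type (1.25 ± 0.13). BTS was higher too (0.47 ± 0.09). The uptake regulator FIT (FRU in the reference) had 0.11 ± 0.32 and PYE 0.03 ± 0.18, and neither passed. FRD3, which exports citrate into the xylem for iron transport, was lower, with 18.0, 24.3 and 23.7 CPM in icpk, against 38.8, 39.99 and 45.6 CPM in KNO3 wild type (-0.91 ± 0.14), and YSL1, an iron-nicotianamine transporter gene, was lower as well (-0.50 ± 0.11). Of 7 tested storage genes, the vacuolar transporter-like gene VTL5 was higher, with 8.86, 15.2 and 12.7 CPM in icpk, against 2.39, 3.90 and 2.704 CPM in KNO3 wild type (2.03 ± 0.23). The ferritin gene FER1 was lower, with 148, 260.0 and 259 CPM in icpk, against 387, 478 and 329 CPM in KNO3 wild type (-0.84 ± 0.21). Root markers moved against the uptake genes, with 7 of 21 lower. IRT1 stood at 7.55 without KNO3 wild type replicate 2. AT1G47395 stood at 3.29 without KNO3 wild type replicate 2.

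**Figure D4:**
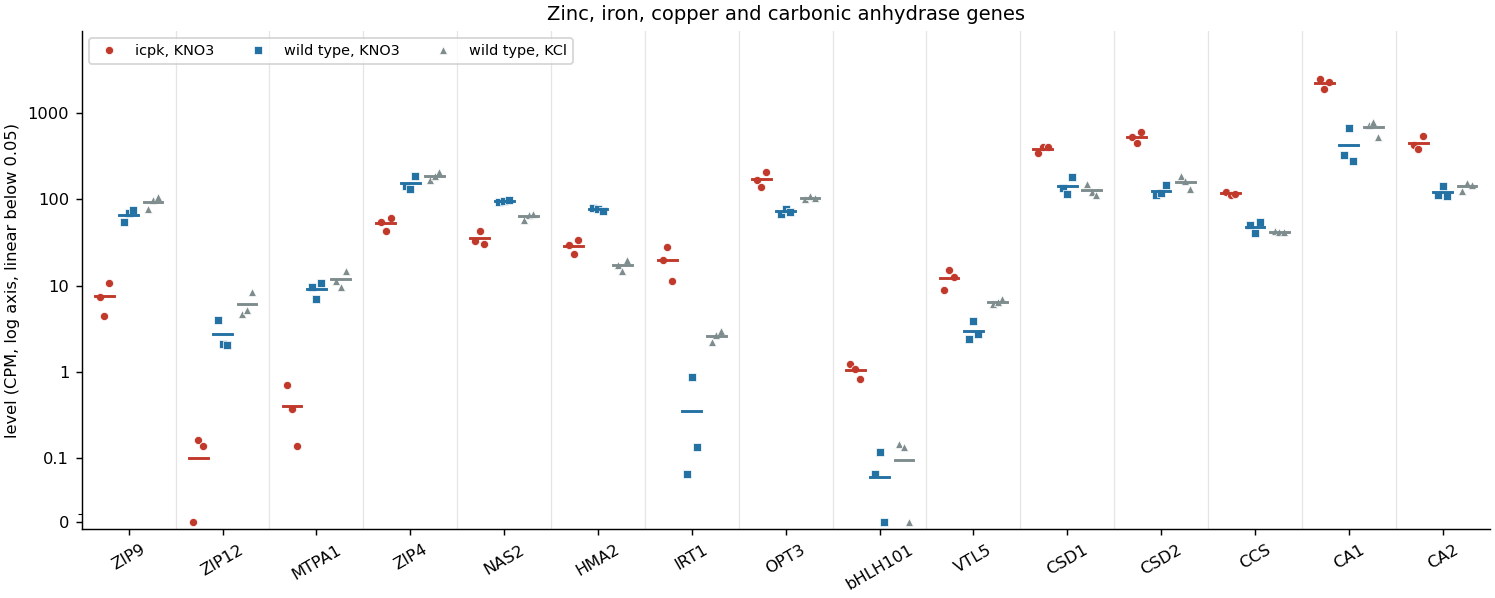
Levels (CPM; log axis, linear below 0.05) of genes of zinc, iron and copper homeostasis and of carbonic anhydrases in each library, with icpk in red, KNO3 wild type in blue and KCl wild type in grey; lines are group means. The 6 zinc genes at the left are lower in icpk than in KNO3 wild type, and the other 9 genes are higher.

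Copper and superoxide dismutase genes, where called, were higher. Of 12 tested copper and superoxide dismutase genes 6 were higher and 0 lower (median 0.46). CSD2, the chloroplast copper/zinc dismutase, had 535, 450.4 and 599.8 CPM in icpk, against 111, 118 and 147 CPM in KNO3 wild type (log2 difference 2.08 ± 0.17 SE, adjusted p = 0.000155). CSD1, its cytosolic relative, had 345, 411 and 411 CPM in icpk, against 135, 115 and 181 CPM in KNO3 wild type (1.44 ± 0.17). CCS, the chaperone that hands copper to both, had 124, 114 and 117 CPM in icpk, against 50.3, 40.3 and 54.8 CPM in KNO3 wild type (1.29 ± 0.11). All icpk libraries lay above all 6 wild type libraries, and KCl wild type had 188, 164 and 131 CPM for CSD2. The transcripts of these 3 genes are known targets of the microRNA miR398, and mature microRNAs are not measured by these libraries. The copper chaperone gene CCH (0.53 ± 0.11) and the iron dismutases FSD3 (0.89 ± 0.18) and FSD2 (1.05 ± 0.24) were higher as well. The third copper/zinc dismutase CSD3 (0.24 ± 0.13), the iron dismutase FSD1 (0.39 ± 0.21) and the copper factor SPL7 (-0.13 ± 0.09) did not pass. FSD2 lost its call without KNO3 wild type replicate 1 (adjusted p = 0.0588). FSD2 and CCH were not called when the fit held only replicates 1 and 2 of each group.

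Carbonic anhydrases, zinc enzymes that turn carbon dioxide into bicarbonate, parted by member. Of 6 beta-type genes 3 were higher and 1 lower (median 0.72). CA1, the main chloroplast enzyme, whose promoter stretch is printed with the zinc genes, had 2477, 1927 and 2322 CPM in icpk, against 326, 677 and 277 CPM in KNO3 wild type (log2 difference 2.39 ± 0.32 SE, adjusted p = 0.00123). CA2 had 429, 386 and 547 CPM in icpk, against 113, 143 and 108 CPM in KNO3 wild type (1.90 ± 0.16). Both lay above every wild type library, with 733, 801 and 529 CPM for CA1. CA4, of the plasma membrane, was lower, with 274, 270.3 and 235 CPM in icpk, against 389, 361 and 329 CPM in KNO3 wild type (-0.47 ± 0.12). Shoot photosynthesis markers moved beside CA1 and CA2 with a median of 0.51, 30 of 31 positive and 3 called. CA4 missed the threshold without icpk replicate 3 or KNO3 wild type replicate 1 (adjusted p = 0.0618 to 0.0845). Dropping the third replicate of every group left CA4 uncalled.

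CPK, calmodulin and NADPH oxidase genes were called lower and none higher. Of 24 tested CPK genes other than the targeted ones, 10 were lower and 0 higher (median -0.39). CPK2 had 11.4, 17.56 and 11.1 CPM in icpk, against 25.1, 27.3 and 29.8 CPM in KNO3 wild type (log2 difference -1.03 ± 0.18 SE, adjusted p = 0.00354). CPK29 had 38.6, 38.2 and 17.43 CPM in icpk, against 74.4, 83.5 and 71.0 CPM in KNO3 wild type (-1.28 ± 0.24). CPK5, a kinase of immune and oxidative signalling, had 118, 121 and 116 CPM in icpk, against 168, 155 and 177 CPM in KNO3 wild type (-0.49 ± 0.10), and its close relative CPK1 was lower too (-0.71 ± 0.14). Of 25 calmodulin and calmodulin-like genes 11 were lower and 0 higher (median -0.58). CML23 had 9.21, 7.19 and 3.39 CPM in icpk, against 19.5, 16.0 and 16.0 CPM in KNO3 wild type (-1.39 ± 0.28). CML42, which acts in trichome branching and defence, had 20.1, 22.2 and 12.9 CPM in icpk, against 46.2, 39.6 and 41.1 CPM in KNO3 wild type (-1.20 ± 0.24). CML12 (TCH3), known as touch-induced, had 585, 421 and 352 CPM in icpk, against 1017, 851 and 888 CPM in KNO3 wild type (-1.02 ± 0.24). CAM3, a calmodulin gene, was lower (-0.50 ± 0.11), and since calmodulin genes are near-identical in their coding parts, their counts are uncertain. RBOH proteins are NADPH oxidases that make superoxide at the cell surface, and of 8 tested 3 were lower and 0 higher (median -0.51). RBOHD, the main form in leaves, had 289, 239 and 214 CPM in icpk, against 351, 408 and 430.5 CPM in KNO3 wild type (-0.68 ± 0.17). CBL sensors and CIPK kinases, another calcium relay, held 5 lower and 4 higher of 31 (median -0.06). The shares over all genes tested were 11.4% lower and 11.3% higher. CIPK1 was lower, with 99.3, 91.2 and 78.4 CPM in icpk, against 144, 152 and 116 CPM in KNO3 wild type (-0.62 ± 0.12). CIPK16 was higher, with 5.04, 5.87 and 5.60 CPM in icpk, against 2.97, 2.18 and 3.17 CPM in KNO3 wild type (1.00 ± 0.20). Lower CPK genes numbered 5 without icpk replicate 3 and 6 without KNO3 wild type replicate 1, and lower calmodulin genes 6 without that second library. Lower RBOH genes numbered 1 without icpk replicate 3 or KNO3 wild type replicate 3 and 5 without icpk replicate 2. CBL and CIPK genes numbered 1 to 4 higher and 2 to 5 lower over fits without 1 library. CML12 lost its call without KNO3 wild type replicate 1 (adjusted p = 0.0522). RBOHD was not called without icpk replicate 3 or KNO3 wild type replicate 3 (adjusted p = 0.0541). In a fit of replicates 1 and 2 alone, CPK1, CPK5, CML12, CML42, CAM3 and RBOHD were not called.

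Transcription factors of rapid stress responses, where called, were lower with 1 exception. Of 16 tested ERF factors 6 were lower and 0 higher (median -0.51), all 6 in every fit that left out 1 library. ERF105 had 21.9, 24.2 and 17.0 CPM in icpk, against 88.4, 84.5 and 84.4 CPM in KNO3 wild type (log2 difference -2.02 ± 0.14 SE, adjusted p = 6.42e-05). ERF5 had 30.2, 25.9 and 23.2 CPM in icpk, against 73.8, 68.9 and 71.6 CPM in KNO3 wild type (-1.44 ± 0.14). ERF6 had 60.9, 39.4 and 41.4 CPM in icpk, against 123, 148 and 149 CPM in KNO3 wild type (-1.58 ± 0.24). These factors answer cold, wounding and pathogen signals, and icpk lay below KCl wild type too, which had 59.7, 77.4 and 70.4 CPM for ERF105. Of 16 WRKY factors 8 were lower and 0 higher (median -0.60). WRKY33, a regulator of defence against fungi, had 217, 176 and 131 CPM in icpk, against 476, 412 and 496 CPM in KNO3 wild type (-1.40 ± 0.21). WRKY53, a senescence regulator, had 5.39, 3.65 and 4.29 CPM in icpk, against 16.3, 9.47 and 20.9 CPM in KNO3 wild type (-1.82 ± 0.26). WRKY54 had 7.47, 6.35 and 6.296 CPM in icpk, against 21.1, 26.1 and 13.2 CPM in KNO3 wild type (-1.59 ± 0.23). WRKY54 differed in that icpk overlapped KCl wild type, which had 6.61, 5.27 and 7.88 CPM. Of 10 ZAT and AZF zinc-finger factors 5 were lower and 1 higher (median -0.79). ZAT10, a repressor in salt and light stress, had 64.2, 58.0 and 59.4 CPM in icpk, against 136, 120.1 and 177 CPM in KNO3 wild type (-1.25 ± 0.17). ZAT6 had 28.0, 25.0 and 28.4 CPM in icpk, against 70.2, 50.4 and 86.7 CPM in KNO3 wild type (-1.35 ± 0.23). AT2G28200, listed as ZAT5, was the 1 higher member (0.91 ± 0.25). The letters TTGAC, the core that WRKY factors bind, stood on either strand in the windows of 9 of the 10 ZAT and AZF genes, 12 of the 16 WRKY genes and 10 of the 16 ERF genes, against 51.3% of windows of genes tested. Lists that were called mostly higher held it too, with 6 of 6 windows of beta carbonic anhydrases and 9 of 12 of branched-chain amino acid catabolism. CBF factors and cold-regulated genes held 0 calls of 8 tested (median 0.02), where 3 had an unadjusted p below 0.05, DESeq2 called 1 lower and limma voom called 0. Over fits without 1 library 0 to 2 of them were lower, with 2 without KNO3 wild type replicate 2, and 1 was higher without icpk replicate 1. Lower WRKY genes numbered 4 without KNO3 wild type replicate 1 and 5 without icpk replicate 2. AT2G28200 did not pass without icpk replicate 3 or KNO3 wild type replicates 1 or 2 (adjusted p = 0.067 to 0.0874). From the first 2 replicates of each group alone, AT2G28200 was not called.

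**Figure D5:**
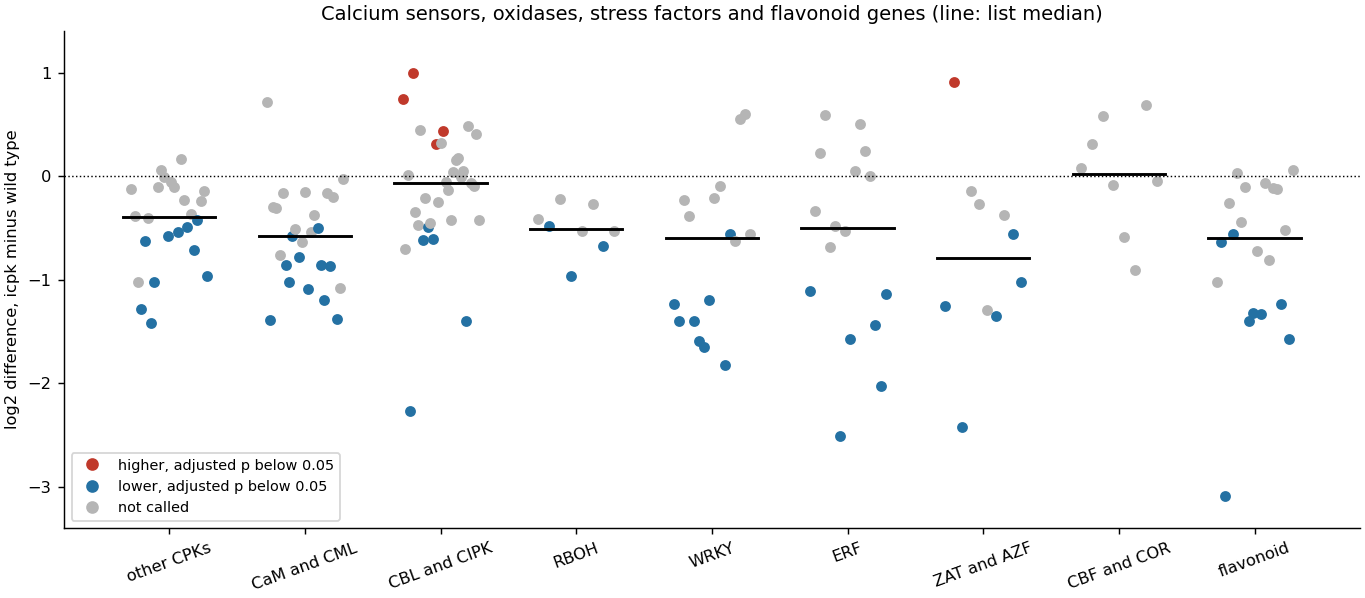
Log2 difference of icpk minus KNO3 wild type for every tested gene of 9 lists; red and blue points were called higher and lower, grey were not called, and black lines are list medians. Medians run from -0.79 for ZAT and AZF factors to 0.02 for CBF factors and cold-regulated genes, and CBL and CIPK genes spread on both sides of 0.

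Auxin and cytokinin genes changed member by member. For comparison, 22.7% of all genes tested were called, 11.3% higher and 11.4% lower. Of 23 tested auxin genes 8 were lower and 4 higher (median -0.31). IAA19, an early auxin-induced repressor gene, had 3.13, 3.70 and 2.49 CPM in icpk, against 8.85, 8.84 and 10.3 CPM in KNO3 wild type (log2 difference -1.57 ± 0.17 SE, adjusted p = 0.000672). IAA1, another, had 2.78, 4.18 and 1.66 CPM in icpk, against 9.43, 8.15 and 7.72 CPM in KNO3 wild type (-1.52 ± 0.26). GH3.3, which conjugates auxin to amino acids, was higher, with 11.04, 8.15 and 13.6 CPM in icpk, against 4.84, 4.19 and 4.88 CPM in KNO3 wild type (1.23 ± 0.22). TAA1, the first enzyme of auxin synthesis, was higher too, with 34.8, 37.6 and 46.2 CPM in icpk, against 21.2, 24.0 and 27.4 CPM in KNO3 wild type (0.71 ± 0.13). Of 20 cytokinin synthesis and turnover genes 4 were lower and 2 higher (median -0.23). CYP735A2, which makes trans-zeatin, had 4.26, 6.29 and 6.78 CPM in icpk, against 10.6, 10.8 and 10.6 CPM in KNO3 wild type (-0.87 ± 0.21). IPT9, which makes cytokinin from transfer RNA, had 25.5, 22.7 and 25.8 CPM in icpk, against 12.5, 17.2 and 15.04 CPM in KNO3 wild type (0.72 ± 0.13). IPT3, the nitrate-responsive synthesis gene, had -0.20 ± 0.20 and did not pass. Of 9 type-A response regulators, which dampen cytokinin signalling, ARR3 was lower, with 2.69, 3.86 and 4.22 CPM in icpk, against 9.88, 9.75 and 9.30 CPM in KNO3 wild type (-1.41 ± 0.20), and ARR4 was higher (0.74 ± 0.15). Lower auxin genes numbered 4 or 5 without any 1 icpk library or without KNO3 wild type replicate 1 or 3. Lower cytokinin genes numbered 2 without icpk replicate 2, icpk replicate 3 or KNO3 wild type replicate 2.

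Abscisic acid genes held 3 lower and 2 higher of 14 (median -0.10). ABF2, a bZIP factor of the hormone response, had 42.9, 38.2 and 35.8 CPM in icpk, against 77.4, 67.8 and 70.6 CPM in KNO3 wild type (log2 difference -0.89 ± 0.09 SE, adjusted p = 0.00051), and its relative ABF4 was higher (0.36 ± 0.08). CYP707A3, which breaks the hormone down, had 70.7, 63.4 and 55.7 CPM in icpk, against 148, 156 and 134 CPM in KNO3 wild type (-1.21 ± 0.18). Jasmonate genes held 1 higher and 1 lower of 19, and JAZ repressors 2 lower and 0 higher of 12. Over all genes tested 11.3% were higher and 11.4% lower. Over fits without 1 library the jasmonate genes held 0 to 2 higher and 0 to 4 lower, 2 higher with the replicate number as a block, and the abscisic acid genes 1 or 2 higher. JAZ4 had 6.605, 8.20 and 6.64 CPM in icpk, against 13.9, 18.4 and 9.69 CPM in KNO3 wild type (-0.96 ± 0.23). Of 20 tested circadian clock genes 6 were higher and 0 lower (median 0.22). RVE1, a MYB-like factor that links the clock to auxin, had 16.7, 16.3 and 18.7 CPM in icpk, against 7.23, 8.03 and 6.53 CPM in KNO3 wild type (log2 difference 1.24 ± 0.12 SE, adjusted p = 0.000304). It was the 1 clock gene called in every fit that left out 1 library. The evening element AAAATATCT stood on either strand in the windows of 5 of the 20 clock genes, TOC1, PRR5, PRR9, LUX and FKF1, against 2.98% of windows of genes tested. The G-box CACGTG stood in the windows of 9 of the 20, RVE1 among them, against 8.68% of windows of genes tested. The morning genes CCA1 (0.30 ± 0.14) and LHY (0.03 ± 0.11) and the evening gene TOC1 (-0.08 ± 0.12) did not pass. Of 11 phytochrome-interacting factors and partners 3 were higher and 1 lower (median 0.28). PIF4, a bHLH promoter of elongation growth, had 22.4, 19.2 and 26.4 CPM in icpk, against 11.498, 8.61 and 6.92 CPM in KNO3 wild type (1.33 ± 0.21). PIF1, a repressor of seed germination in the dark, had 26.3, 23.8 and 32.0 CPM in icpk, against 14.9, 12.9 and 15.2 CPM in KNO3 wild type (0.94 ± 0.13). HFR1, which restrains PIF proteins in shade, was higher too, with 2.87, 2.38 and 3.25 CPM in icpk, against 1.23, 1.205 and 1.52 CPM in KNO3 wild type (adjusted p = 0.01). Higher clock genes numbered 3 without icpk replicate 1 or 3 or without any 1 KNO3 wild type library. ABF4 and HFR1 were not called when the fit held only replicates 1 and 2 of each group.

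Flavonoid genes, where called, were lower. Of 20 tested flavonoid genes 8 were lower and 0 higher (median -0.60). MYB90, an activator of anthocyanin genes, had 1.65, 0.793 and 1.04 CPM in icpk, against 9.37, 7.23 and 12.2 CPM in KNO3 wild type (log2 difference -3.09 ± 0.30 SE, adjusted p = 0.000356). KCl wild type stood between, with 2.82, 3.94 and 4.58 CPM. DFR, the first enzyme committed to anthocyanins, had 19.6, 34.1 and 17.37 CPM in icpk, against 72.9, 86.6 and 54.3 CPM in KNO3 wild type (-1.58 ± 0.27). GSTF12, needed to bring anthocyanins to the vacuole, had 11.9, 14.3 and 8.44 CPM in icpk, against 26.1, 31.8 and 23.9 CPM in KNO3 wild type (-1.23 ± 0.18). The bHLH partner TT8 was lower too (-1.32 ± 0.21). Among genes of the early steps, PAL1 (-0.56 ± 0.15) and 4CL3 (-0.64 ± 0.15) were lower, while CHS (-0.13 ± 0.16) and CHI (-0.10 ± 0.10) did not pass. Lower flavonoid genes numbered 5 without icpk replicate 1. PAL1 missed the threshold without icpk replicates 1 or 3 or KNO3 wild type replicates 1 or 3 (adjusted p = 0.0618 to 0.087). Dropping the third replicate of every group left PAL1 and 4CL3 uncalled.

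Genes of phosphate, sulfate and potassium nutrition were called in both directions, as were 11.3% (higher) and 11.4% (lower) of all genes tested. Of 14 phosphate genes 3 were lower and 1 higher (median -0.08). SPX4, a phosphate sensor protein that also holds back nitrate signalling factors, had 15.6, 14.8 and 17.64 CPM in icpk, against 29.1, 26.5 and 32.1 CPM in KNO3 wild type (log2 difference -0.87 ± 0.13 SE, adjusted p = 0.00183). MGD3, a galactolipid synthase of phosphate starvation, had 0.956, 0.635 and 0.692 CPM in icpk, against 2.97, 2.24 and 3.099 CPM in KNO3 wild type (-1.88 ± 0.31). Both PEP carboxylase kinases, which switch carbon towards organic acids, were lower, PPCK2 with 26.9, 24.6 and 25.6 CPM in icpk, against 43.9, 59.8 and 37.4 CPM in KNO3 wild type (-0.87 ± 0.16) and PPCK1 at -0.57 ± 0.12. The 3 carboxylase genes tested were not called. Of 18 sulfate genes 4 were higher and 2 lower (median 0.14), and 1 was lower with the replicate number as a block or without any 1 library other than KNO3 wild type replicate 2. APR3, an enzyme of sulfate reduction, had 105, 112 and 87.2 CPM in icpk, against 56.1, 45.9 and 66.6 CPM in KNO3 wild type (0.86 ± 0.15). The vacuolar sulfate exporters parted, with SULTR4;2 higher (0.80 ± 0.16) and SULTR4;1 lower (-0.53 ± 0.08). Of 15 potassium channel and transporter genes 2 were higher and 2 lower (median 0.02), and no call among them held in every fit that left out 1 library. GRXS13 was the 1 gene called of 10 CC-type glutaredoxins, with 11.8, 12.7 and 12.4 CPM in icpk, against 4.72, 3.21 and 5.54 CPM in KNO3 wild type (1.46 ± 0.22). HB1, a nitrate-induced phytoglobin, had 25.2, 19.99 and 18.1 CPM in icpk, against 40.4, 36.0 and 27.7 CPM in KNO3 wild type (-0.72 ± 0.20). By edgeR, DESeq2 and limma voom alike, 0 of 8 heat shock genes and 0 of 7 ribosome assembly genes were called, with 1 and 0 at an unadjusted p below 0.05. A single heat shock gene was higher without icpk replicate 3 or KNO3 wild type replicate 2. HB1 lost its call without icpk replicates 2 or 3 or KNO3 wild type replicates 1 or 2 (adjusted p = 0.0557 to 0.108). HB1 was not called when the fit held only replicates 1 and 2 of each group.

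Large rises and falls outside the lists fell on genes of varied annotation. AT2G05510, a glycine-rich protein gene, had 222, 227 and 233 CPM in icpk, against 43.3, 30.7 and 45.6 CPM in KNO3 wild type (log2 difference 2.51 ± 0.15 SE, adjusted p = 3.40e-05). AT2G20670, annotated as a DUF506 protein, had 42.2, 63.3 and 75.7 CPM in icpk, against 10.01, 17.62 and 4.95 CPM in KNO3 wild type (2.47 ± 0.36). UMAMIT33, of an amino acid transporter family, had 6.605, 8.78 and 12.1 CPM in icpk, against 1.42, 3.33 and 0.791 CPM in KNO3 wild type (2.28 ± 0.39). THI2.2, a thionin gene, was higher as well (2.27 ± 0.43). MLS, the malate synthase of germinating seeds, rested mainly on 1 library, with 7.39, 8.57 and 52.6 CPM in icpk, against 3.94, 4.65 and 5.08 CPM in KNO3 wild type (log2 difference 2.33 ± 0.65 SE, adjusted p = 0.028). AIG1, a gene induced by an avirulent pathogen, was lower, with 3.65, 2.59 and 3.32 CPM in icpk, against 43.4, 41.7 and 39.96 CPM in KNO3 wild type (-3.73 ± 0.26). AACT1, which the reference only names as an anthocyanin acyltransferase, had 1.56, 1.005 and 1.04 CPM in icpk, against 19.8, 5.62 and 32.0 CPM in KNO3 wild type (-4.02 ± 0.57). That name is no evidence of a role in anthocyanin synthesis. The lectin family genes PP2-B13 (-3.80 ± 0.50) and PP2-B14 (-3.18 ± 0.49) were lower together. AT3G41979, annotated as 5.8S ribosomal RNA, was lower at -4.94 ± 1.16. It was not called with limma voom (adjusted p = 0.0594) or by edgeR without icpk replicate 3 (adjusted p = 0.0522). CRA1, a seed storage protein gene, had 0, 0.0529 and 0.0692 CPM in icpk, against 0.711, 2.47 and 20.7 CPM in KNO3 wild type. Its 2 counts in icpk against 368 in KNO3 wild type gave a ratio of KNO3 wild type over icpk of 172 with a 95% counting interval of 47.2 to 1423, and the wild type level rested mainly on replicate 3. UMAMIT33 stood at 3.04 without KNO3 wild type replicate 2. MLS missed the threshold without KNO3 wild type replicates 1, 2 or 3 or with limma voom or in a fit of the 6 KNO3 libraries (adjusted p = 0.0557 to 0.106). MLS stood at 0.80 without icpk replicate 3. AACT1 stood at -3.42 without KNO3 wild type replicate 3. Without that library CRA1 stood at -4.94, against -7.23 with every library, and with limma voom CRA1 was not called (adjusted p = 0.0596). Dropping the third replicate of every group left MLS uncalled.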

How the data were processed

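RNA of 9 pooled seedling samples was sequenced. Per the submitters' processing notes, the authors used TopHat, HTSeq, DESeq2 and TAIR10; their versions and any strand setting are not given here, and the kit named in the labels does not mark strand, so reads of overlapping and antisense genes, and of near-identical genes, are uncertain. The deposited files hold whole-number counts per gene for each sample, made by the authors with HTSeq per those notes. The authors' deposited comparison tables hold mean normalized signal, log2 fold changes, a test statistic (score) and p-values, of which only the log2 fold changes of 3 genes are printed.

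Summary rows, 26.7% to 61.4% of records in the 6 KNO3 libraries and up to 84.3% in KCl wild type replicate 3, were left out. Genes passed filterByExpr (minimum count 10), and TMM normalization and edgeR's quasi-likelihood test with Benjamini-Hochberg adjustment over 20288 genes followed (R 4.3.3, edgeR 4.0.16, limma 3.58.1, DESeq2 1.42.0, Python 3.11.15, pandas 2.3.3). All 9 libraries shared 1 estimate of the spread (biological coefficient of variation 15.1%). The method was also run on simulated counts, which had the same spread for every gene and independent libraries. That run therefore cannot show how well the p-values hold for these libraries. The SE is the difference divided by the square root of its F statistic. CPM uses TMM-scaled gene counts. Intervals and floors cover counting error only.

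Names and sequences came from RefSeq (TAIR10.1), to which 31912 of 32678 identifiers matched. Members and lists were chosen with earlier results of these data known. Of 709 listed genes 637 were tested; the others are not in the counts of members. Named genes were the 3 targeted kinases, the 15 genes with the largest positive and the 15 with the largest negative log2 difference, called, without overlap of libraries and at an average log2 CPM of at least 1, up to 4 called members per list by p, and members given as values only. Not every one of the named genes is printed. The list notes on neighbouring and defensin-like genes were added after values were seen.

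Same-numbered libraries of icpk and KNO3 wild type deviated together (correlations 0.12 to 0.31, against -0.20 to 0.08 for other pairs), so the replicate number was also fitted as a block. Other alternatives were no count filter, DESeq2 size factors, DESeq2's Wald test, limma voom, the 6 KNO3 libraries alone, replicates 1 and 2 alone, each library left out, and organelle and ribosomal RNA genes left out.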

Additional observations from a re-analysis of the deposited data

How the results depend on the processing

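CPK10, CPK30 and CPK32 kept direction and call under all alternatives run. Genes called higher numbered 643 and lower 765 with replicates 1 and 2 of each group alone, with 182 at least 2-fold higher and 358 at least 2-fold lower. Over the fits that left out 1 library, higher genes ran from 1082 to 2348, lower genes from 1379 to 2209, genes at least 2-fold higher from 279 to 611 and genes at least 2-fold lower from 571 to 812. KNO3 wild type replicate 1 gave the fewest calls when left out, and without KNO3 wild type replicate 2 the 611 was reached. A fit of the 6 KNO3 libraries alone called 1708 genes higher and 2038 lower, against 2286 and 2313 in the main fit. With the replicate number as a block, 2402 genes were higher and 2368 lower. Against the main fit, 304 calls were lost and 475 gained under the block. The 157 other named genes kept their call, as did the 3 kinases. Of 160 named genes 112 kept their call under every setting and 22 lost it only with replicates 1 and 2 alone. Lists with 0 members in 1 direction held 1 or 2 there in some fits without 1 library, for the JAZ, CBF and cold, WRKY, ERF, calmodulin, trehalose phosphate synthase, heat shock and glutaredoxin genes. Losses of calls with fewer libraries come with smaller groups by construction, and other causes were not tested. Depth limits genes near the count minimum of 10.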
